A study of Monodelphis domestica and Mus musculus with 2 samples.

Results

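IT_A is the upper intratelencephalic (IT) subclass of glutamatergic neurons in the primary visual cortex (V1) of the gray short-tailed opossum, Monodelphis domestica. Its members are the segmented cells that the authors labelled IT_A by nearest neighbors in expression, that also carry the glutamatergic class label, that lie in 1 of the 3 marked V1 regions and that passed the authors' filter. This rule found 1594 cells of the 4806 opossum V1 cells that passed, and of the 200608 segmented cells of both sections. A further 2 cells with the IT_A label lacked the glutamatergic class label and were left out.

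The data are Stereo-seq counts, in which barcoded spots under a tissue section capture RNA and unique molecular identifiers (UMIs) are summed over segmented cells. The opossum sample is a single 10 µm section of V1 from 1 male of about 6 months, cut from a block of coronal slices that held several V1 hemispheres, and the RNA integrity number of the block was 7.1. No treatment was given. The mouse sample, used only at the end, is a 10 µm section from 1 male C57BL/6J mouse at about P40. No cell barcode occurred in both sections. The 3 V1 regions belong to the same animal and are not replicates, so a value per region shows the spread within this section only. The labels were made from expression, so every gene difference between subclasses is given as a description, without a test.

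IT neurons send their axons to other parts of the telencephalon, including the other hemisphere, and in placental mammals they fill layers 2/3, 4, 5 and 6. Upper-layer IT neurons are known for the homeobox factors Cux1 and Cux2. Corticothalamic neurons of layer 6 (L6CT) are known for Foxp2 and Tle4, pyramidal tract neurons of layer 5 (L5PT) for Bcl11b and Fezf2, and near-projecting neurons (L5NP) form a small deep subclass. IT_B and IT_C are the other large IT subclasses of the opossum atlas.

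IT_A was compared with the 1107 cells of the other 5 glutamatergic subclasses that had at least 25 cells in the same regions. These were IT_B (126 cells), IT_C (262 cells), L5PT (115 cells), L5NP (39 cells) and L6CT (565 cells). Among the 2701 cells of the 6 subclasses, IT_A took 59.0% (95% Clopper-Pearson interval 57.1 to 60.9). The share was 62.8% in region 1, 58.6% in region 2 and 53.8% in region 3. The remaining cells of the glutamatergic class had an IT_D label (10 cells, under the minimum), a subclass label of another class (850 cells) or no subclass label (191 cells). These remaining cells were left out of the comparison. Below, other glutamatergic cells are the 1107 compared cells.

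An IT_A cell held a median of 1365 UMIs and 831 genes, and the other subclasses together held a median of 1700 UMIs. By region the IT_A medians were 1382.5, 1610 and 1005 UMIs, so region 3 was the shallowest. Levels below are UMIs of a gene per 10000 UMIs, summed over cells, with exact Poisson intervals at 95%. Ratios are log2 of the IT_A level over the level of the other 5 subclasses pooled, with exact conditional intervals at 95%. All intervals cover counting error only. A segmented cell can hold RNA of its neighbors, and no doublet caller was run.

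IT_A cells reached from the top of the marked regions to their bottom. The median depth was 200.2 µm in region 1, 168 µm in region 2 and 181.6 µm in region 3, measured from the top of each region and scaled to the tallest, which was 773 µm high. Shares by depth were taken among the cells of IT_A and the compared subclasses, without the remaining cells of the glutamatergic class. In the upper of 3 depth zones of equal height IT_A made up 90.2% of these cells (986 of 1093). The share was 63.3% in the middle zone (513 of 810) and 11.9% in the lower zone (95 of 798). Because IT_A and L6CT set which end counts as the top, only the shape of this decline is a measurement.

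**Figure D1:**
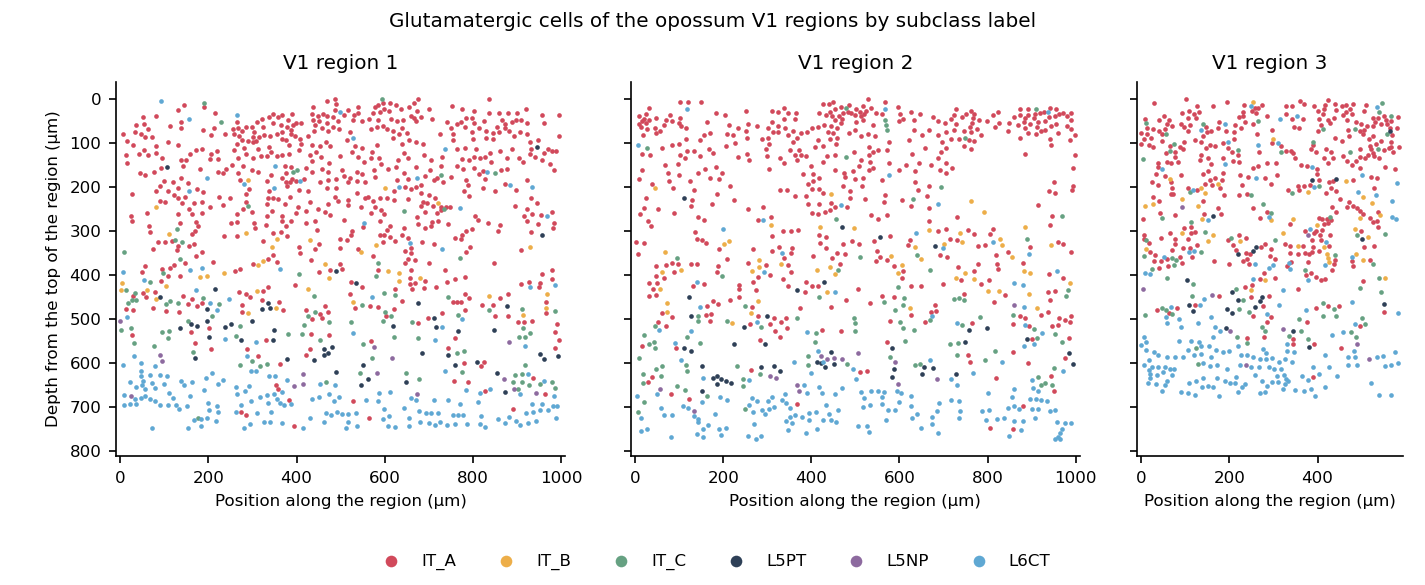
Positions of the 2701 cells of IT_A and the compared glutamatergic subclasses in the 3 opossum V1 regions. Axes are position along the region and depth from its top in µm, with 1 point for each cell, coloured by subclass label. IT_A cells fill the upper zone, where 986 of 1093 of these cells carry this label. In the lower zone 95 IT_A cells lie among L6CT cells.

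The decline was gradual. In 10 depth bins of equal height the share of IT_A fell from 93.2% in the top bin to 70.1% in the fifth and 44.4% in the seventh, and then to 4.0% in the bottom bin. The regions differed most in the fourth bin, where IT_A made up 92.2% of the cells in region 1, 45 of 60 cells in region 2 and 55.4% in region 3. Region 1 and region 3 did not overlap there in their intervals, which ran from 85.8 to 96.4% and from 41.5 to 68.7%.

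**Figure D2:**
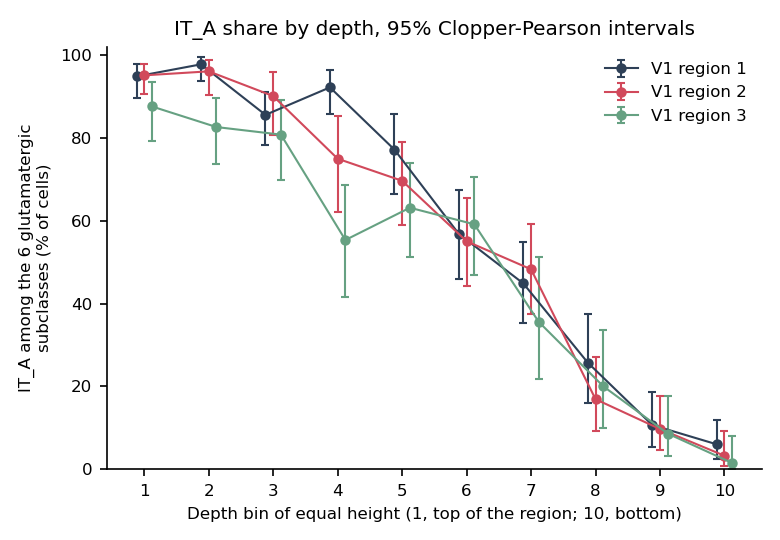
Share of IT_A among the cells of the 6 glutamatergic subclasses, in percent, by depth bin from the top (1) to the bottom (10) of each V1 region, with 95% Clopper-Pearson intervals and 1 line for each region. All 3 regions decline, and region 3 lies below region 1 in the fourth bin, at 55.4% against 92.2%.

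Most cells around an IT_A cell were also IT_A. Of its 10 nearest V1 cells of any class, which lay within a median of 34.7 µm, 53.9% were IT_A, against 49.9% of all V1 cells at the same depth in the same region. The ratio of these values was 1.08, and it was 1.09, 1.08 and 1.07 in the 3 regions. The same ratio was 1.103 for IT_B around IT_B, 1.35 for IT_C around IT_C and 1.67 for L5PT around L5PT. Astrocytes made up 8.78% of the nearest cells of IT_A against 10.3% at the same depth, and oligodendrocytes 5.98% against 7.04%.

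The given markers did not all separate IT_A from the other subclasses. GRIA4, CUX2 and CUX1 passed 1.5-fold over the other cells pooled and NRGN did not, and IT_B was as high as IT_A for CUX2 and CUX1. GRIA4, a subunit of AMPA-type glutamate receptors, was at 7.52, 7.87 and 5.97 UMIs per 10000 in IT_A of regions 1, 2 and 3, and at 2.46, 2.12 and 1.88 in the other subclasses. Every region of IT_A lay above every region of the others, and the pooled ratio was 1.75 on the log2 scale (interval 1.59 to 1.90), or 3.36-fold. Among single subclasses L5PT came next with 3.73 UMIs per 10000, followed by IT_B with 2.59.

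CUX2, a homeobox transcription factor of upper layers, was at 3.31, 3.86 and 3.82 UMIs per 10000 in IT_A and at 1.21, 1.47 and 1.23 in the others, a pooled log2 ratio of 1.46 (1.26 to 1.67). CUX1, its paralog, was at 1.45, 1.35 and 1.21 against 0.48, 0.77 and 0.84, a pooled log2 ratio of 1.03 (0.73 to 1.33). The regions of IT_A lay above those of the pooled others for both genes. IT_B alone had 4.20 UMIs per 10000 of CUX2 (3.37 to 5.16) against 3.62 in IT_A (3.38 to 3.87), and 1.70 of CUX1 (1.19 to 2.35) against 1.37 (1.22 to 1.53), so the intervals overlap.

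NRGN, which codes for the calmodulin-binding protein neurogranin, was abundant everywhere. Its level was 55.8, 54.6 and 67.2 UMIs per 10000 in IT_A of the 3 regions and 38.2, 38.3 and 51.3 in the others, and the pooled log2 ratio of 0.48 (0.44 to 0.52) stayed under 1.5-fold. Region 3 was higher than the other regions in both groups. Oligodendrocytes, which should lack NRGN, held 45.0 UMIs per 10000 of it, close to the other glutamatergic cells.

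The share of cells with a UMI of a marker depended on the UMIs per cell. After every cell was thinned to 300 UMIs, which left out 52 IT_A cells and 27 others, GRIA4 was found in 15.6% of IT_A cells, 5.65% of the other glutamatergic cells and 4.00% of oligodendrocytes. Unthinned, these shares were 40.1%, 22.3% and 17.8%, at median depths of 1365, 1700 and 1180 UMIs per cell. CUX2 was found in 9.34%, 3.61% and 2.22% after thinning and in 27.5%, 14.7% and 12.6% before. For CUX1 the thinned share of IT_A was 3.37% (2.53 to 4.40), against 1.94% (1.21 to 2.96) of the other glutamatergic cells. It was not above the 5.33% (2.79 to 9.13) of oligodendrocytes, which rests on 12 of 225 cells. How much of the CUX1 share is background was not tested.

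Across all genes, a feature was called higher or lower where the pooled ratio passed 1.5-fold and all 3 regions lay on that side. Of 4794 features with at least 200 UMIs over these cells, 241 were higher in IT_A (5.03%) and 201 were lower (4.19%). A gene symbol is given for 199 of the higher and 158 of the lower features. Of the 241 higher features, 138 were above each of the other 5 subclasses. Among the others, IT_B had the highest level for 121 of the 241. Of the 201 lower features, 68 were below each of the others, and 93 had their highest level in L6CT. At the threshold, UNC5D (log2 ratio 0.59) was just inside and CADM1 (0.58) just outside. With sums drawn down to equal UMIs, Spearman's rho across the 4794 features between IT_A and another subclass was 0.705 for IT_C, 0.678 for IT_B, 0.669 for L5PT and for L6CT, and 0.633 for L5NP, and features are not independent replicates. The cells of IT_A divided into 2 sets gave 0.727 against each other at this number of UMIs, which the other values lie close to. At more UMIs per subclass, without L5NP, they were 0.814 for IT_C, 0.792 for IT_B, 0.783 for L5PT and 0.767 for L6CT.

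Other glutamatergic cells lie deeper than IT_A, so the same ratios were also taken with the other cells weighted to the depth of the IT_A cells in 10 bins. On this scale 193 of the 241 higher features were still above 0 and 115 still past 1.5-fold, whereas 142 of the 201 lower features were still below 0 and 47 past 1.5-fold. The median log2 ratio of the higher features went from 0.81 to 0.52 and that of the lower features from −0.84 to −0.27. The median over all 4794 features was −0.02 before and 0.05 after. Only 107 other glutamatergic cells lay in the upper zone, so the weighted ratios rest on few cells there. A second depth-matched ratio, which gives strata with few cells little weight (Mantel-Haenszel, chosen after the data were seen), was also taken. With it the median log2 ratio was 0.32 for the higher and −0.40 for the lower features.

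**Figure D3:**
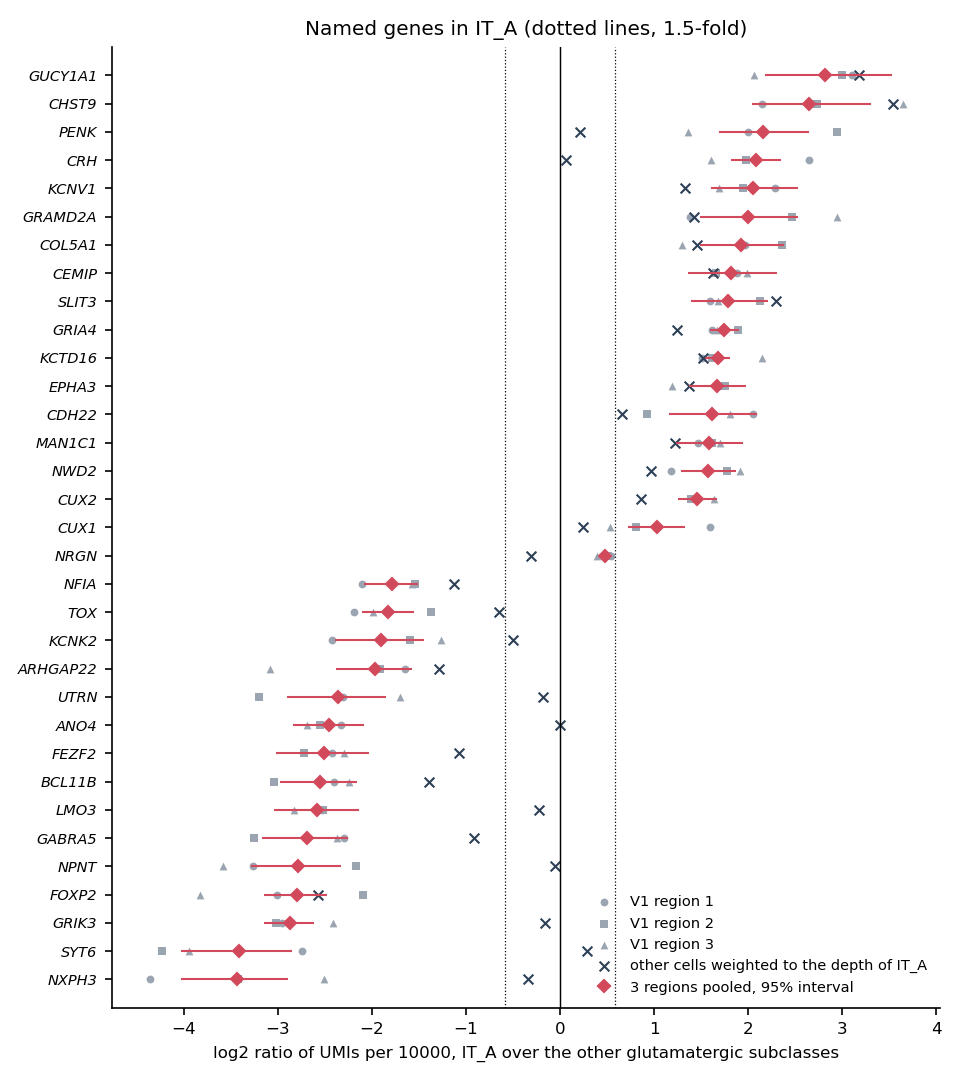
The log2 ratio of UMIs per 10000 in IT_A over the other 5 glutamatergic subclasses for the 4 given markers and the 15 highest and 15 lowest genes with a symbol. Gray points are the 3 V1 regions and red diamonds the pooled ratio with its 95% counting interval. Crosses are the ratio with the other cells weighted to the depth of IT_A. On that scale GUCY1A1, CHST9 and FOXP2 kept their size. PENK, CRH, NRGN, CUX1, SYT6, NXPH3, ANO4, NPNT, GRIK3, UTRN and LMO3 lay between −0.33 and 0.29 there. For GUCY1A1, CHST9 and SYT6 the depth-weighted ratio rests on very few UMIs of the other cells in the upper zone. For SLIT3, COL5A1, CEMIP, GRAMD2A and EPHA3 it rests on few.

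GUCY1A1, which codes for the alpha 1 subunit of soluble guanylate cyclase, the receptor for nitric oxide, had the highest ratio. It was at 0.91, 0.76 and 0.68 UMIs per 10000 in IT_A of regions 1, 2 and 3 and at 0.11, 0.09 and 0.16 in the others. No region of the others came near IT_A, and the pooled log2 ratio was 2.82 (2.18 to 3.53), or 7.07-fold. In the upper zone, IT_A held 1.05 and the other cells 0.10 UMIs per 10000, and the depth-weighted log2 ratio was 3.18, or 1.89 with Mantel-Haenszel weights. The other cells of that zone numbered 107 and held the same 0.10 for CHST9 and SYT6. The depth-weighted ratios of these genes therefore rest on very few UMIs. The 188 UMIs came from 129 IT_A cells, with at most 5 in 1 cell.

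CHST9, a sulfotransferase that modifies sugar chains, was at 0.71, 0.90 and 0.87 UMIs per 10000 in IT_A and at 0.16, 0.14 and 0.07 in the others, a pooled log2 ratio of 2.64 (2.04 to 3.31). Its depth-matched log2 ratio was 3.55 with depth weights and 2.52 with Mantel-Haenszel weights. SLIT3, a secreted ligand of Robo receptors in axon guidance, was at 1.37, 1.01 and 0.97 against 0.45, 0.23 and 0.30, with a pooled log2 ratio of 1.79 and depth-matched ratios of 2.29 and 2.03. The depth-weighted value of SLIT3 rests on few UMIs, since the other cells of the upper zone held 0.29 UMIs per 10000. CHST9 was at 0.90 UMIs per 10000 (0.76 to 1.07) in the upper, 0.57 (0.40 to 0.77) in the middle and 1.03 (0.59 to 1.68) in the lower zone of IT_A. SLIT3 was at 1.403, 0.55 and 1.422 in these zones. The lower zone rests on 95 cells, and the regions differed there for CHST9. Its log2 ratio of the upper over the lower zone was −0.07 in region 2 and −2.58 in region 3. In region 1 the lower zone of IT_A held no UMI of CHST9.

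Among the 2 neuropeptide genes with the highest ratios, CRH codes for corticotropin-releasing hormone and PENK for the precursor of enkephalins. CRH was at 3.09, 2.82 and 3.39 UMIs per 10000 in IT_A and at 0.49, 0.72 and 1.11 in the others, a pooled log2 ratio of 2.08 (1.82 to 2.35), and 414 IT_A cells held a UMI of it. PENK was at 1.01, 1.15 and 0.89 against 0.25, 0.15 and 0.35, a pooled log2 ratio of 2.16 (1.69 to 2.65). In the upper zone CRH was at 3.35 in IT_A and 3.40 in the other glutamatergic cells, and PENK at 1.43 and 1.07. In the middle zone CRH was higher in IT_A, at 2.88 (2.49 to 3.31) against 1.76, and in the lower zone it was at 0.71 (0.35 to 1.27) against 0.22, whereas PENK was at 0.44 and 0.42 in the middle zone. The depth-weighted log2 ratios were 0.07 for CRH and 0.21 for PENK, and 0.39 and −0.20 with Mantel-Haenszel weights.

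KCNV1, a modifier subunit of potassium channels, had a pooled log2 ratio of 2.05 and stood at 1.46 UMIs per 10000 in the upper zone, 0.07 in the middle zone and 1.23 in the lower zone of IT_A. KCTD16, an auxiliary subunit of GABA-B receptors, had a log2 ratio of 1.68 (1.55 to 1.81), with 9.02, 10.7 and 11.2 UMIs per 10000 in IT_A against 3.18, 3.49 and 2.53. IT_B was higher still for KCTD16, at 12.3 (10.8 to 13.8). EPHA3, a receptor of ephrins, had a log2 ratio of 1.67 and was at 1.89 UMIs per 10000 in IT_A and 2.41 in IT_B. COL5A1, a fibrillar collagen chain, was at 1.04 in IT_A and 1.13 in IT_B.

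The cadherin CDH22 had a log2 ratio of 1.61 and a depth-weighted ratio of 0.66. CEMIP, which takes part in the breakdown of hyaluronan, was at 1.82, the mannosidase MAN1C1 at 1.58, and NWD2 and GRAMD2A at 1.58 and 1.99. Each of these 5 genes was above the others in all 3 regions. On the depth-weighted scale 13 of the 15 highest genes were still past 1.5-fold, and the exceptions were CRH and PENK. With Mantel-Haenszel weights 11 were, and EPHA3 (0.13) and CDH22 (0.05) were further exceptions. For GRIA4 the depth-matched log2 ratios were 1.24 and 0.82.

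**Figure D4:**
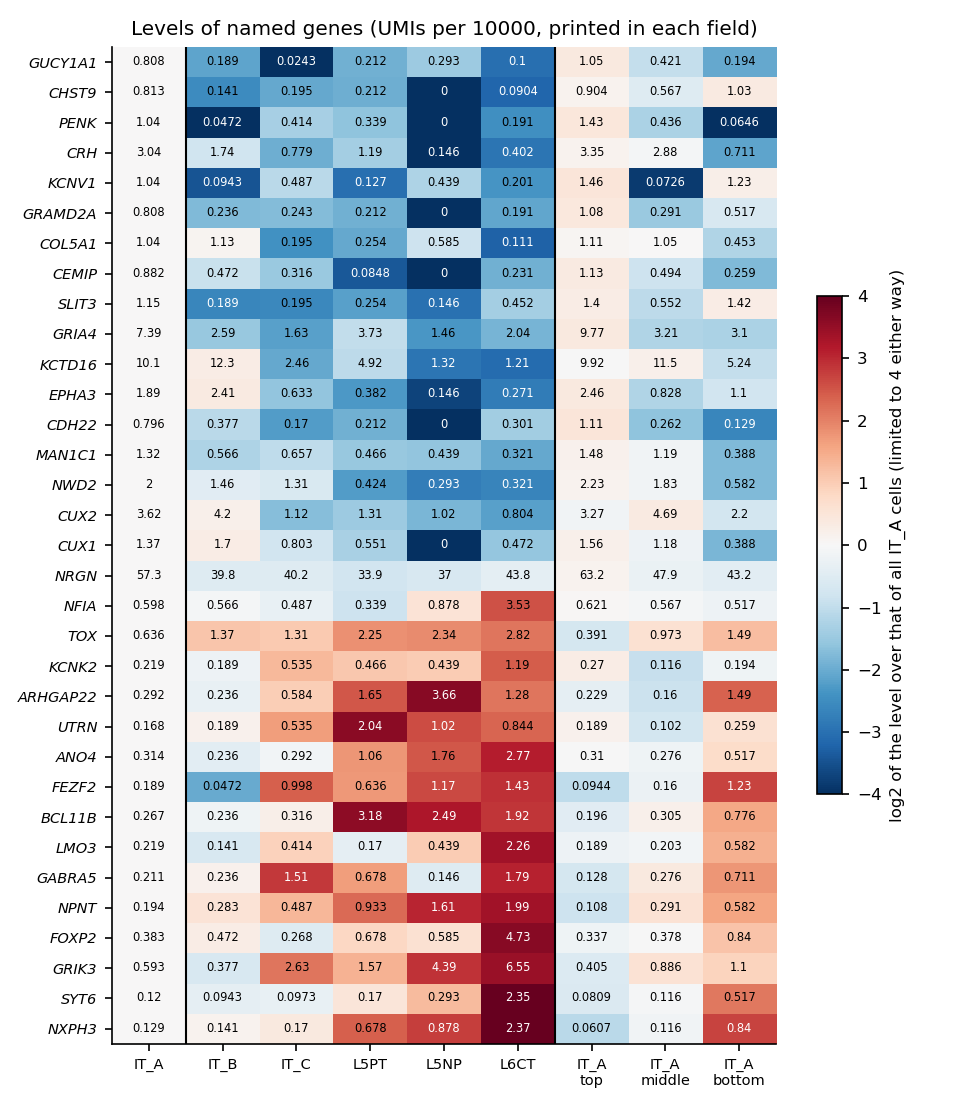
Levels of the named genes in UMIs per 10000, printed in each field, for IT_A and the other 5 glutamatergic subclasses and, to the right of the second line, for IT_A in its upper (top), middle and lower (bottom) depth zones. Color is log2 of the level over that of all IT_A cells; CUX2, CUX1, KCTD16, EPHA3 and COL5A1 are as high in IT_B as in IT_A, and the lowest genes peak in L6CT, L5NP or L5PT.

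Of the 15 lowest genes 12 had their highest level in L6CT. NXPH3, a neurexophilin, was at 0.06, 0.13 and 0.29 UMIs per 10000 in IT_A of regions 1, 2 and 3 and at 1.249, 1.393 and 1.649 in the others, a log2 ratio of −3.43 (−4.03 to −2.89). SYT6, a synaptotagmin of corticothalamic cells, was at 0.18, 0.06 and 0.10 against 1.22, 1.22 and 1.49, a log2 ratio of −3.41. Both groups were far apart in every region. L6CT held 2.37 UMIs per 10000 of NXPH3 and 2.35 of SYT6, whereas IT_B had 0.14 and 0.09 and so lay with IT_A. At matched depth the log2 ratios were −0.33 for NXPH3 and 0.29 for SYT6, and −0.34 and −0.49 with Mantel-Haenszel weights.

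FOXP2, a forkhead transcription factor of layer 6, was low in IT_A at matched depth as well. It was at 0.35, 0.48 and 0.24 UMIs per 10000 in IT_A and at 2.84, 2.03 and 3.44 in the others, a log2 ratio of −2.80 (−3.14 to −2.47), with −2.57 on the depth-weighted scale and −1.41 with Mantel-Haenszel weights. In the upper zone IT_A held 0.34 and the other glutamatergic cells 2.62. Against IT_B and IT_C alone the ratio was 0.18, and L6CT held 4.73.

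BCL11B and FEZF2, the transcription factors of subcortically projecting neurons, had log2 ratios of −2.55 and −2.51, with −1.39 and −1.07 at matched depth. With Mantel-Haenszel weights they were −1.31 and −0.22. BCL11B was at 0.27 UMIs per 10000 in IT_A and at 3.18 in L5PT, 2.49 in L5NP and 1.92 in L6CT. FEZF2 was at 0.19 in IT_A and highest in L6CT, at 1.43. NFIA, a nuclear factor I protein, had a log2 ratio of −1.79 and was at 3.53 in L6CT, 0.60 in IT_A and 0.57 in IT_B. TOX (−1.82) and LMO3 (−2.58) are further transcriptional regulators of this set. The dystrophin relative UTRN (−2.36), at 2.04 UMIs per 10000 in L5PT, the potassium channel KCNK2 (−1.91) and the channel relative ANO4 (−2.45) completed it with NPNT, ARHGAP22, GRIK3 and GABRA5. Of the 15 lowest genes 7 were past 1.5-fold on the depth-weighted scale and 10 with Mantel-Haenszel weights. Depth-weighted log2 ratios were −0.22 for LMO3, −0.18 for UTRN, −0.003 for ANO4 and −0.05 for NPNT. With Mantel-Haenszel weights these 4 genes were at −0.92, −1.77, −0.77 and −0.72.

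The gene lists below were counted by the same rule, by which 5.03% of all features were higher and 4.19% lower. Glutamate receptor genes did not move as one. Among 7 measured AMPA receptor genes GRIA4 was higher and the auxiliary subunit CNIH3 was lower (log2 ratio −0.82), and 5 did not pass the rule. CNIH3 was at −0.57 with depth weights and −0.73 with Mantel-Haenszel weights, and passed the rule with neither. The other pore-forming subunits had log2 ratios of 0.31 for GRIA2, −0.05 for GRIA1 and −0.28 for GRIA3, so GRIA4 was the only pore-forming subunit called. Of 4 kainate receptor genes GRIK4 was higher (0.86) and GRIK3 (−2.87) and GRIK2 (−1.23) were lower. GRIK3 was at 0.59 UMIs per 10000 in IT_A and 6.55 in L6CT, and its log2 ratio was −0.16 with depth weights and −0.98 with Mantel-Haenszel weights. GRIK2 was at 0.00 and −0.86 on these scales and GRIK4 at 1.39 and 0.15. None of 3 NMDA receptor genes passed, with log2 ratios from 0.01 for GRIN2A to 0.31 for GRIN2B.

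Among metabotropic receptors GRM5, a group I receptor, was higher (log2 ratio 0.75, and 0.67 at matched depth) and GRM8 was lower (−1.79, with 0.06 and −0.42 at matched depth by the depth and Mantel-Haenszel weights). Of the 5 measured metabotropic receptor genes none passed the rule with depth weights, and 1 was higher with Mantel-Haenszel weights. Of 7 GABA-A receptor genes GABRA2 was higher (0.86) and GABRA5 lower (−2.69), and the other 5 did not pass, beside 5.03% higher and 4.19% lower over all features. With Mantel-Haenszel weights none of the 7 passed, and with depth weights 2 were higher and none lower. GABRA5 was at 0.21 in IT_A, 1.51 in IT_C and 1.79 in L6CT. Of 5 receptor genes for monoamines and acetylcholine, ADRA1B (1.46) and HTR2A (1.11) were higher and CHRM3 (−0.60) was lower. ADRA1B, an adrenergic receptor, was at 1.64, 1.61 and 1.60 UMIs per 10000 in IT_A and at 0.80, 0.50 and 0.37 in the others. None of the 5 passed the rule at matched depth by either weighting, where ADRA1B was at 0.78 and 0.30, HTR2A at 0.28 and −0.34 and CHRM3 at 0.47 and 0.11.

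Of 18 measured potassium channel genes, 5 were higher in IT_A, 3 were lower and 10 did not pass, against 5.03% and 4.19% of all features. The median log2 ratio was 0.27 beside −0.02 over all features. It was 0.02 against IT_B and IT_C only, with none higher, 0.25 with depth weights, with 3 higher, and 0.03 with Mantel-Haenszel weights, with 1 higher. KCNH7, an ether-a-go-go-related channel, was at 6.45, 6.46 and 5.56 UMIs per 10000 in IT_A against 2.82, 3.25 and 2.23, a log2 ratio of 1.14 (1.00 to 1.29). IT_B held 9.57. KCNQ5 (0.78), KCND2 (0.68), KCNJ6 (0.72) and KCNH5 (0.73) were the others, and KCNK2, KCNIP1 (−1.28) and KCNT2 (−0.76) were lower. At matched depth KCNH5 was at −0.26 with depth weights and −0.99 with Mantel-Haenszel weights.

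Of 19 measured axon guidance genes 9 were higher in IT_A, 3 were lower and 7 did not pass, beside 5.03% and 4.19% over all features. The higher genes included the ligands SLIT1 (0.94), SLIT2 (0.80) and SLIT3, the semaphorin SEMA3A (1.39), the netrin receptors UNC5C (0.68) and UNC5D, and the Eph receptors EPHA3, EPHA4 (1.01) and EPHB1 (0.60). The lower genes were the netrin receptor DCC (−1.51), NTNG1 (−1.47) and EPHA5 (−1.09). The median log2 ratio of the 19 was 0.21, and its direction turned with the compared cells. It was 0.04 with depth weights (6 higher, 1 lower), −0.27 with Mantel-Haenszel weights (3 higher, 3 lower) and −0.08 against IT_B and IT_C only (5 higher, 5 lower). Among 15 cadherins and protocadherins 5 were higher, CDH12, CDH20, CDH22, PCDH15 and PCDH19, and CDH13 (−1.26) and PCDH17 (−0.999) were lower. With depth weights 7 of the 15 were higher and 2 lower, and with Mantel-Haenszel weights none was higher and 1 was lower.

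Of 4 measured calcium sensor genes 3 were higher, CALB1 (1.27), HPCAL1 (1.20) and NECAB3 (1.36), with depth-weighted values of −0.13, 0.50 and 0.24 and Mantel-Haenszel values of −0.02, −0.07 and 0.61. The shares over all features were 5.03% higher and 4.19% lower. At matched depth none of the 4 passed by the first weighting and 1 by the second, with list medians of 0.05 and −0.04. CALB1, which codes for calbindin, was at 2.98, 3.39 and 3.70 UMIs per 10000 in IT_A and at 1.33, 1.39 and 1.35 in the others, and IT_B held 4.81. Of 9 calmodulin and CaMKII genes PPP3CA (0.75) was higher and PCP4L1 (−1.57) and CAMK2G (−1.03) were lower. PCP4L1, a relative of the calmodulin-binding protein PCP4, was at 2.03 in the upper and 10.7 in the lower zone of IT_A, and the other cells of these zones were at 1.94 and 11.2.

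Of 7 measured upper layer IT genes 5 were higher, CUX1, CUX2, CALB1, RASGRF2 (0.96) and UNC5D (0.59), and POU3F2 (0.27) and POU3F3 (0.00) did not pass, beside 5.03% higher over all features. At matched depth 1 of the 7 passed the rule by either weighting, CUX2 at 0.86 and 0.66. Against IT_B and IT_C only, 1 was higher and the list median changed sign, from 0.96 to −0.13. RORB, the nuclear receptor that marks layer 4, was at 0.43, 0.57 and 0.41 UMIs per 10000 in IT_A and at 1.32, 1.62 and 1.53 in the others (log2 ratio −1.62), and IT_B held 7.50. At matched depth the log2 ratio of RORB was −2.40, and −2.21 with Mantel-Haenszel weights. Of 6 measured L6CT and L6b genes 5 were lower, FOXP2, SYT6, NXPH3, TLE4 (−1.16) and TBR1 (−0.90), and RPRM (−1.02) did not pass because region 3 lay on the other side of 0, at 1.06. At matched depth 3 of the 6 were lower with depth weights and 2 with Mantel-Haenszel weights.

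Of 29 cortical transcription factors 3 were higher in IT_A, among them CUX1 and CUX2, and 12 were lower, against 5.03% and 4.19% of all features. At matched depth 5 were lower by either weighting, and 2 or 1 were higher. The lower factors included SOX5 (−1.78), ZFPM2 (−1.75), ETV1 (−1.39) and NFIB (−0.80). Of 8 activity genes BDNF (1.04), EGR2 (0.89) and EGR4 (0.63) were higher and 5 did not pass, among them EGR1 (0.41), NPAS4 (0.53) and FOS (−0.03). None of the 8 passed the rule at matched depth by either weighting, after thinning to 300 UMIs or against IT_B and IT_C only. The list median of 0.47 changed to −0.19 with depth weights and 0.15 with Mantel-Haenszel weights, and BDNF was at −0.02 and 0.44. Of 15 genes of transmitter release only SYT16 (1.248) passed, and SNAP25 (−0.09) and SYT1 (−0.08) had nearly equal levels in both groups.

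Oligodendrocyte RNA was lower in IT_A than in the other subclasses pooled, and nearly level with them at matched depth. Of 5 measured oligodendrocyte genes 4 were lower in IT_A, among them MBP (−0.77), UGT8 (−0.72) and CLDN11 (−0.83), and their part in the ratios was not tested. Summed over the list, IT_A held 27.3, 26.0 and 22.3 UMIs per 10000 in the 3 regions and the other subclasses 42.5, 44.5 and 39.97, while oligodendrocytes held 148. At matched depth the median log2 ratio of the list was −0.10, and −0.01 with Mantel-Haenszel weights. An MBP UMI was found in 80.2% of IT_A cells and 90.3% of the others unthinned, and in 41.3% and 56.9% after thinning to 300 UMIs. Of 9 astrocyte genes only SLC1A2 passed, as lower (−0.61). None of 5 measured GABAergic genes passed. Summed over the 12 genes of that list with a feature, the level was 9.62 in IT_A and 11.2 in the others, against 66.2 in Pvalb cells. In cells without an MBP UMI (315 IT_A and 107 others), a setting chosen after the data were seen, GRIA4 kept a log2 ratio of 1.87, while that of CUX2 was 0.12. With 107 others these ratios rest on few cells, and the cause of the change in CUX2 was not tested.

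The remaining lists, most of them short, were counted by the rule that called 5.03% of all features higher and 4.19% lower. Of 5 measured neuropeptide genes CRH, PENK and CCK (0.71) were higher, and CCK, the cholecystokinin gene, was at 7.17 UMIs per 10000 in IT_A and 4.37 in the others. None of the 5 was higher at matched depth by either weighting. Of 13 sodium and calcium channel genes CACNA1B (0.65) and CACNA2D1 (0.60) were higher and SCN3B (−0.69) was lower. Of 3 layer 4 genes KCNH5 was higher and RORB lower, of 2 deep IT genes DEPTOR (0.71) was higher and ETV1 lower, and of 5 L5PT genes BCL11B and FEZF2 were lower. Of 4 pan-glutamatergic genes 1 was higher, and of 2 olfactomedin genes OLFM1 (0.62) was. Neither of 2 vascular genes passed, and no microglia or L5NP gene reached 200 UMIs.

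Inside IT_A, genes varied with depth. Levels of the upper zone were set against those of the lower zone by the same rule. This covered 1906 features with at least 200 UMIs in the IT_A cells of the upper and lower zones together. In the upper zone 274 features were higher (14.4%) and 112 were lower (5.88%). The upper zone holds 986 IT_A cells and the lower zone 95, so features reached 200 UMIs mostly through the upper zone. Features high only in the lower zone are therefore often missing, and the counts of higher and lower features cannot be weighed against each other. GRIA4 fell from 9.77 UMIs per 10000 (9.28 to 10.3) in the upper zone to 3.21 (2.80 to 3.66) in the middle and 3.10 (2.29 to 4.11) in the lower zone. Other glutamatergic cells held 3.69, 1.91 and 2.18 in these zones. The gap between IT_A and the other cells in GRIA4 was widest in the upper zone.

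CUX2 was highest in the middle zone of IT_A, at 4.69 UMIs per 10000 (4.19 to 5.23), against 3.27 in the upper and 2.198 in the lower zone. CUX1 fell from 1.56 to 1.18 and 0.39. CALB1 and RASGRF2 also peaked in the middle zone, at 4.40 and 4.69, and were at 0.32 and 0.58 in the lower zone. PENK was at 1.43, 0.44 and 0.06 and HPCAL1 at 1.73, 0.46 and 0.26. The log2 ratio of the upper over the lower zone was 4.47 for PENK (1.97 to 9.78, few UMIs in the lower zone), 3.24 for CALB1 (2.00 to 4.87) and 2.74 for HPCAL1 (1.37 to 4.63). CPLX1, which codes for complexin 1, went the other way, at 6.70, 13.2 and 18.2, and GAD1, a GABAergic gene, was at 1.19, 2.70 and 2.97. MBP was at 14.6, 25.6 and 32.5, and its part in the zone differences was not tested.

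The authors' labels hold further structure within IT_A. By labelling round, 492 cells were labelled in the first round (all neighbors of the same subclass), 896 in the second and 206 in the third, and the rounds differed in depth, which the labels did not use. Median depths were 105 µm, 219 µm and 328 µm, with 1580, 1296.5 and 1180 UMIs per cell, and this order of depth from the first to the third round held in all 3 regions. GRIA4 was at 12.4, 4.97 and 3.38 UMIs per 10000 in the 3 rounds, whereas CUX2 was at 3.42, 3.76 and 3.57. The rounds come from expression, so these levels are a description.

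By cluster label, 571 IT_A cells were in cluster 1 and 641 in cluster 3, and 168 had no cluster. These 2 clusters lay at like depths, with medians of 152 µm and 156 µm. Clusters 4 (68 cells), 5 (64 cells) and 6 (61 cells) lay deeper, at 384, 363 and 362 µm, and in each of them the median was deeper than that of clusters 1 and 3 in all 3 regions. Leading genes, read off after their values were seen, were ARNT2 in cluster 1 (3.40 UMIs per 10000), CACNA2D3 in cluster 3 (4.07), TAFA2 in cluster 5 (9.12) and SLIT3 in cluster 6 (8.03). SLIT3 was at 0.63 in cluster 3, so its level in IT_A was uneven among the clusters. The cluster labels also come from expression, so these levels are a description. The cluster numbers could not be tied to the clusters named by the authors in their paper.

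The mouse section gives the same kind of ratio for L2/3, the upper IT subclass of the mouse, with 1406 cells against 3916 cells of the other glutamatergic subclasses. The others in the mouse were L4, L5IT, L5PT, L5NP, L6IT, L6CT and L6b. This set and its mix differ from those of the opossum. The part of the compared cells in any difference between species was not tested. By the same rule over 4 regions, 104 of 7079 features were higher in L2/3 (1.47%) and 154 were lower (2.18%). Between species there is 1 animal each and no test was run. Over 3093 genes measured in both and matched by symbol, 147 were higher in IT_A and 49 in L2/3, and 24 were shared, which is 16.3% of the IT_A genes and 49.0% of the L2/3 genes. Of the lower genes, 133 in IT_A and 61 in L2/3, 22 were shared, or 16.5% and 36.1%. The median mouse log2 ratio was 0.18 for the genes higher in IT_A and −0.15 for those lower.

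CUX2, CUX1, CALB1, RASGRF2 and GUCY1A1 were higher in both. In the mouse their log2 ratios were 1.21, 0.68, 1.34, 1.55 and 1.08, so GUCY1A1 was at 1.09 UMIs per 10000 in L2/3 and 0.52 in the other mouse subclasses. FOXP2 (−2.88), FEZF2 (−1.83), NXPH3 (−1.45), RORB (−1.12) and GRIK3 (−1.05) were lower in both. GRIA4 differed: its mouse log2 ratio was −0.29 (−0.47 to −0.12), with 1.88 UMIs per 10000 in L2/3 and 2.29 in the others. KCNV1 (0.27) did not pass in the mouse, and CRH and PENK had too few mouse UMIs for the rule.

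**Figure D5:**
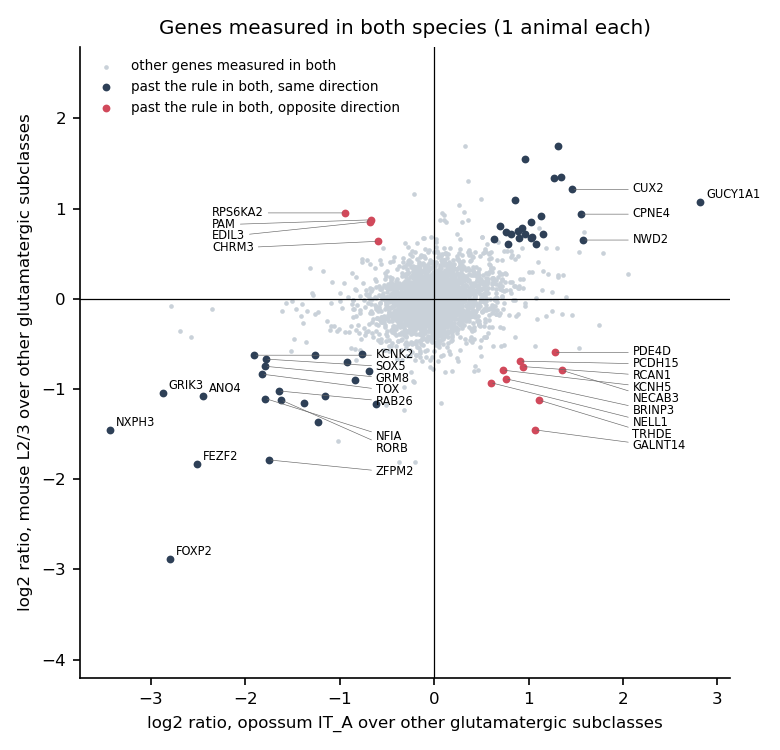
The log2 ratio over the other glutamatergic subclasses in opossum IT_A (horizontal) and mouse L2/3 (vertical) for 3093 genes measured in both, 1 point for each gene. Dark points are the 46 genes called in the same direction in both and red points the 13 called in opposite directions; GUCY1A1 and CUX2 lie at the upper right, FOXP2 at the lower left.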

How the data were processed

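One section of V1 was measured per species by Stereo-seq. Counts per segmented cell were deposited by the authors as whole UMIs per gene, without normalization, with positions and labels. Per the methods, reads were aligned to a custom opossum genome with extended 3′ ends or to the mouse genome (GRCm39 in the submitters' processing notes, which also list Cell Ranger), and the filter kept cells that held 50 or more genes and 100 or more UMIs. Subclass labels came from nearest neighbors in single-nucleus data in 3 rounds, with agreement of 100, 75 and 50%.

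Here UMIs were summed over cells, in total and per region, with numpy 2.4.6, pandas 2.3.3 and scipy 1.17.1 under Python 3.11.15, and drawn with matplotlib 3.10.9. A feature needed 200 UMIs over the compared cells. A call needed 1.5-fold in the pooled cells and the same side in every region. No p-value was computed, since each species is 1 animal and labels come from the same genes. Depth was taken from the smallest rectangle around each region, at 2 coordinate units per µm. The top is the end nearer to IT_A than to L6CT. The named genes are the given markers, the 15 highest and 15 lowest called genes with a symbol, and, of each of 30 gene lists, the called members and up to 4 further members with the most UMIs; exceptions are said to be chosen after their values were seen. The members and lists were chosen with earlier results of these data known. The calculations were tested on simulated data. Some genes of the lists are not reported here.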

Additional observations from a re-analysis of the deposited data

Results flagged for a closer look

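For 13 genes the call in opossum IT_A and the call in mouse L2/3 went in opposite directions, with every region of each species on its own side. Each species is 1 animal, and the other subclasses that form the comparison differ between species, so the difference was not tested. Higher in IT_A and lower in L2/3 were GALNT14 (log2 ratio 1.07 in the opossum and −1.45 in the mouse), NECAB3 (1.36 and −0.79), PDE4D (1.28 and −0.59), TRHDE (1.11 and −1.12) and RCAN1 (0.94 and −0.75). PCDH15 (0.91 and −0.69), BRINP3 (0.76 and −0.89), KCNH5 (0.73 and −0.79) and NELL1 (0.60 and −0.93) went the same way. Lower in IT_A and higher in L2/3 were RPS6KA2 (−0.95 and 0.95), EDIL3 (−0.68 and 0.86), PAM (−0.66 and 0.88) and CHRM3 (−0.60 and 0.64). At matched depth, with depth weights and with Mantel-Haenszel weights, the opossum log2 ratio turned to the mouse direction for KCNH5 (−0.26 and −0.99) and CHRM3 (0.47 and 0.11), and was near 0 for BRINP3 (−0.13 and 0.01) and, by the first, for EDIL3 (0.00 and −0.25). NECAB3 was at 0.24 and 0.61 there. KCNH5, NECAB3, PCDH15 and CHRM3 belong to the gene lists, and the others were named after their values were seen.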

How the results depend on the processing

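No paired analysis was possible because each species is 1 sample. The cause of each change was not tested. With equal weight of the other subclasses the log2 ratio of NRGN was 0.56 and that of CUX2 1.098. Against IT_B and IT_C only, GRIA4 was at 1.92, CUX2 at 0.74 and CUX1 at 0.30, and SYT6 (0.32), FOXP2 (0.18), ANO4 (0.20) and NFIA (0.22) changed sign. Weighted to depth, 595 features were higher, with GRIA4 at 1.24, NRGN at −0.31, CUX2 at 0.86, CUX1 at 0.24 and SYT6 at 0.29. With Mantel-Haenszel weights, chosen after the data were seen, 150 were higher, with GRIA4 at 0.82, NRGN at 0.012, CUX2 at 0.66, CUX1 at −0.022 and PENK at −0.20. Thinned to 300 UMIs, 317 features were lower, NRGN was at 0.30 and CUX1 at 0.65. With at least 50 UMIs per feature the calls were 587 higher and 598 lower, with at least 1000 they were 50 and 24, at a lower fold threshold, between 1 and 1.5, 549 and 516, and at 2-fold 67 and 72. With cells of the first labelling round only, in IT_A and the others, 421 features were higher and 428 lower, and GRIA4 was at 2.45, NRGN at 0.75, CUX2 at 1.81 and CUX1 at 1.66. In cells without an MBP UMI, also chosen after the data were seen, the calls were 675 and 379, with NRGN at 0.26, CUX2 at 0.12 and UTRN at 0.12. Without region 1 CUX1 was at 0.72, and without region 3 NRGN was at 0.53. Lower features of the upper zone numbered 188 without region 1 and 170 without region 2. The share of IT_A cells with a UMI was 96.4% unthinned and 89.8% at 500 UMIs for NRGN, 27.5% and 14.4% for CUX2, 13.7% and 5.54% for CUX1, and 40.1% and 22.2% for GRIA4. In mouse L2/3, equal weight gave 229 higher features, and leaving out region 1 gave 289 lower features. Of the 28 list medians, 6 changed sign when weighted to depth, 5 against IT_B and IT_C only, 7 with Mantel-Haenszel weights and 8 in cells without an MBP UMI. Depth limits the ratios of genes with few UMIs, and the 3 regions of 1 animal give no error between animals.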
